A study of Sorghum bicolor with 63 samples.

Results

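The genes described here are the ethylene-response and EIL transcription factors of a nitrogen regulatory network in sorghum. Earlier results of these data were known when they were chosen. The choice was made by name, as the network genes named EIL4, EREB63, EREB71, EREB89, EREB126 and EREB159, and not by a cut on their expression. These names covered 7 of the 35567 genes in the expression tables, because EREB89 stood for 2 gene IDs. The IDs were SORBI_3002G247500 for EIL4, SORBI_3003G380900 for EREB63, SORBI_3001G473900 for EREB71, SORBI_3003G265200 for EREB126 and SORBI_3001G039800 for EREB159, and the EREB89 copies were SORBI_3007G162700 and SORBI_3001G378900. The names and the network edges came from maize, carried over by the study to the sorghum orthologs, so an edge between a factor and a target was a projection and was not measured in these plants.

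RNA was sequenced from leaves, lateral roots and primary roots of the sorghum inbred line BTx623, with 7 groups of 3 libraries in each tissue and 63 libraries in all. Plants were 21 days old when they were moved, and each library was a pool that held 5 plants according to the labels and more according to the methods. The deprived groups were sampled 0.5, 3 and 24 h after transfer to solution without nitrate, the recovery groups at 24.5 h and 48 h after nitrate had been given back at 24 h, and a further group was labelled the 48 h nitrogen recovery control; the reference was the 0 h group on normal nitrogen. All groups shared the genotype, and the treatment of the 48 h control is not given in the methods. No group was labelled as moved to fresh solution with nitrate and sampled at 0.5 or 3 h. At these times nitrate withdrawal cannot be told apart from the move itself or the time of day. The time that the 48 h recovery plants spent with nitrate differed between the methods and the labels, so 48 h is used here as the name of the group. The p-values measure the spread between these pools of plants.

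Ethylene is a gaseous hormone whose precursor, ACC, is made by ACC synthase, usually the step that limits its production. In Arabidopsis, ethylene perception stabilises EIN3 and related EIL proteins, which switch on genes of the ERF class, while another EIL protein serves the response to sulfur shortage. ERF proteins belong to the large AP2/EREBP family, which binds DNA through the AP2 domain and also holds the DREB factors of cold and drought responses and the RAV factors, which add a B3 domain. A name in this family does not by itself show that a gene responds to ethylene.

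Values are TPM, a level scaled to transcript length and library total, and a change is a difference of log2(TPM + 1) between group means with its standard error (SE), which understates the change of low genes. A gene was called changed at an adjusted p under 0.05 and a log2 change over 1 in size, from limma over all genes that reached 1 TPM in at least 3 libraries of a tissue. TPM keeps no read counts, so the depth is unknown and no counting interval can be given. Genes at 1 TPM or more numbered 17180 to 30736 per library. LHCB5, a light-harvesting protein gene used as the leaf marker, lay at 1030 to 6270 TPM in leaf libraries and at 2.22 to 268 TPM in primary root libraries. It lay at 2.23 to 56.6 TPM in lateral root libraries except 1: replicate 1 of the 0 h group, by its label, had 4280 TPM. Its nearest library over all genes was a leaf library, replicate 3 of the leaf 48 h control, with a correlation of 0.994. Replicates 2 and 3 of that leaf control had it as their own nearest library, each at 0.994. The named lateral root changes against 0 h are therefore given with and without lateral root 0 h replicate 1.

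The members spanned levels from near 0 to high abundance. EREB159 was the most abundant member, with median levels of 59.8 TPM in leaf, 49.3 TPM in lateral root and 54.1 TPM in primary root over the 21 libraries of each tissue. EIL4 had medians of 6.35, 14.8 and 11.4 TPM in the same tissues, EREB126 had 4.38, 12.3 and 19.8 TPM, and EREB71 had 0.638, 16.4 and 16.7 TPM. By mean TPM over the same libraries, EREB159 stood 4th in leaf, 12th in lateral root and 11th in primary root among the 41 EREB factors of the network. EREB63 and both EREB89 copies had medians under 1 TPM in every tissue. Levels were not tested between tissues, so they are only set side by side here.

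**Figure D1:**
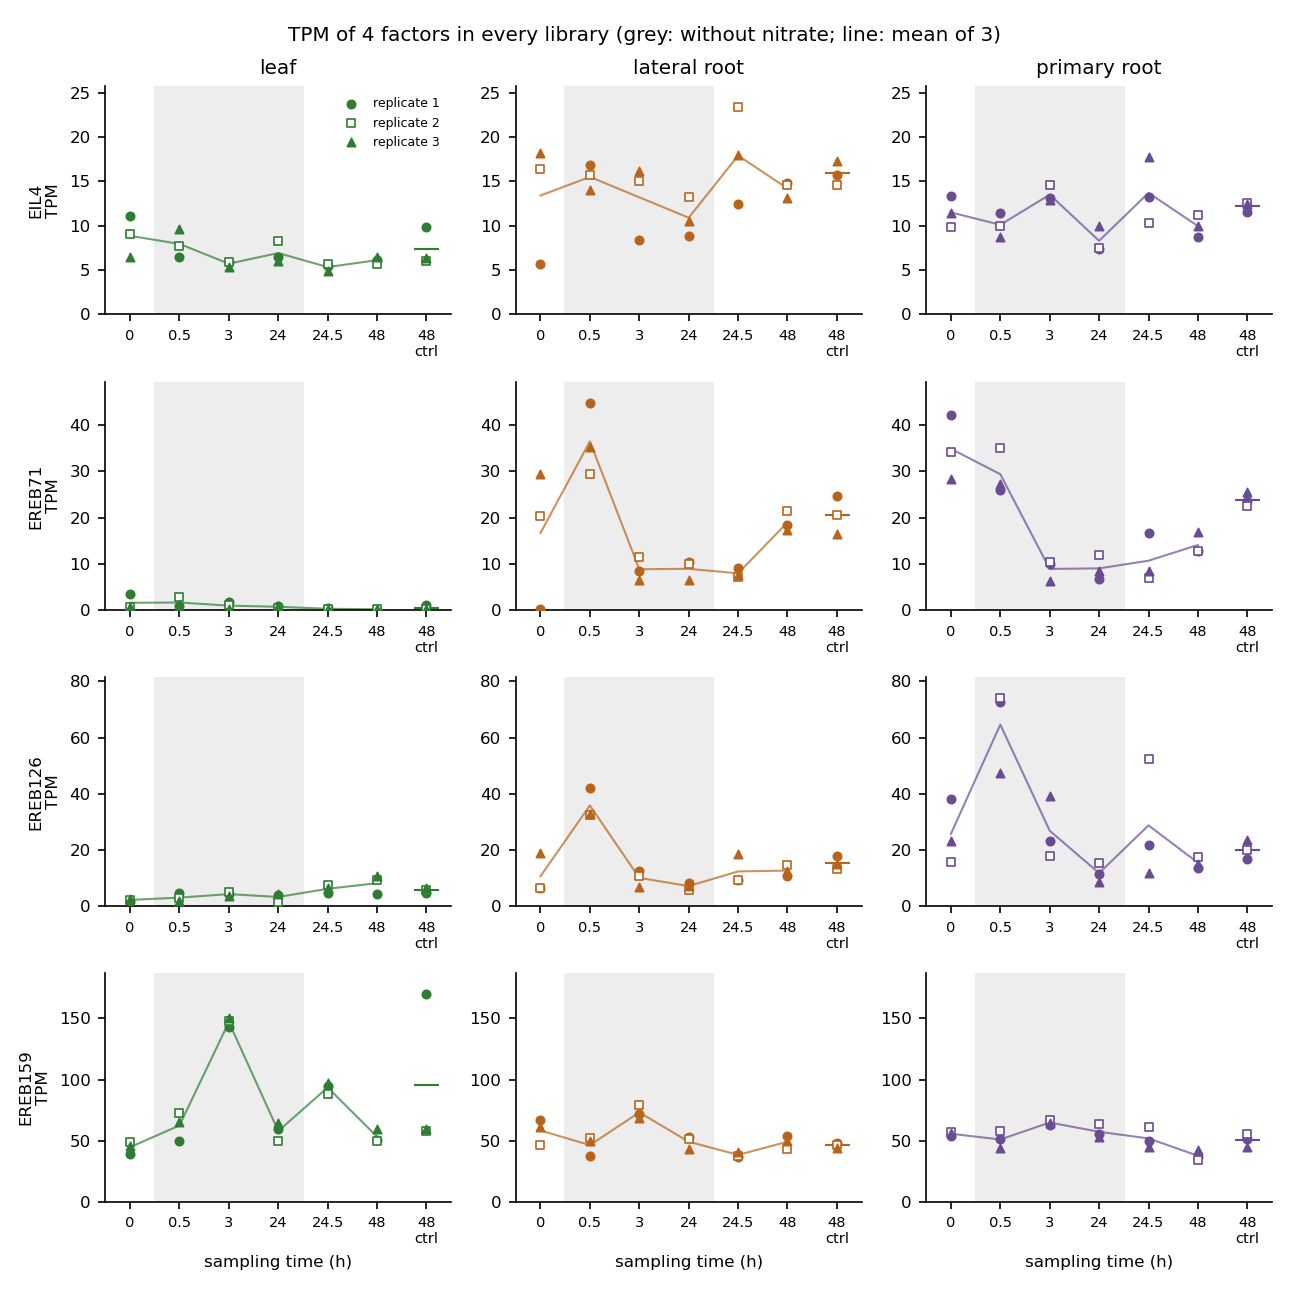
TPM of EIL4, EREB71, EREB126 and EREB159 (rows) in leaf, lateral root and primary root (columns) at each sampling time in hours and in the 48 h control; points are libraries, lines join group means, and grey marks the time without nitrate. EREB71 was low in primary root from 3 h to 48 h, EREB126 was highest at 0.5 h in both roots, EREB159 was highest at 3 h in leaf, and 1 lateral root 0 h library held 0.221 TPM of EREB71.

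Of the 20 tests that 4 measurable members gave in leaf against 0 h, 4 were called, all rises, against 4.02% of all gene tests summed over the same 5 times. Of 20 tests in lateral root 1 was called, a rise, against 9.08% of all gene tests. Of 25 tests of 5 members in primary root 5 were called, 1 rise and 4 falls, against 4.66%. The calls belonged to EREB71, EREB126 and EREB159. The count in lateral root was 4 without the library that stood apart, 1 rise and 3 falls, and the share of all genes then called was 8.83%, 7.54%, 8.21%, 10.9% and 7.75% at the 5 successive times. The leaf count was 2 under median-of-ratios scaling or quantile normalization and 0 with the 48 h control as reference.

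Groups that did not overlap were common among all genes. The libraries of a time lay wholly apart from those of 0 h in 12 of the 20 leaf tests of members, against 32.1% of all gene tests, in 3 of 20 in lateral root, against 23.8%, and in 8 of 25 in primary root, against 30.9%. The calls at single times in lateral root covered 6.87%, 9.43%, 13.2% and 7.23% of all genes at 3, 24, 24.5 and 48 h, where 0 of the 4 members were called by limma with all libraries and 1 test, of EREB159 at 24.5 h, had an unadjusted p under 0.05.

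**Figure D2:**
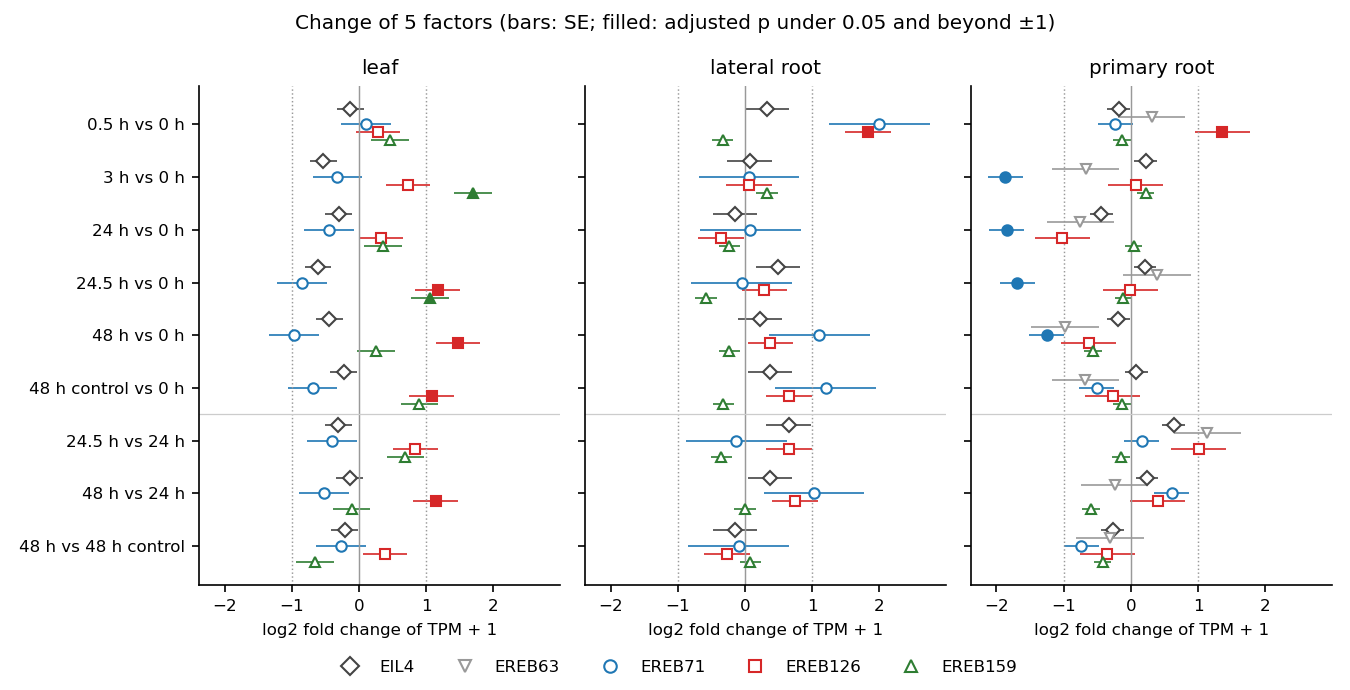
Change of each measurable member on the log2(TPM + 1) scale, with bars of 1 SE, in 9 comparisons (times and the 48 h control against 0 h, and groups after nitrate return) in leaf, lateral root and primary root. Filled points mark calls: EREB71 in primary root at 3, 24, 24.5 and 48 h, EREB126 in both roots at 0.5 h and in leaf after nitrate return and in the 48 h control, and EREB159 in leaf at 3 and 24.5 h.

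EIL4, the only EIN3-like gene among the members, stood within a factor of 1.66 between its lowest and highest group means in every tissue. No change of EIL4 was called in 27 tests by limma, while 5 reached an unadjusted p under 0.05 and 1 an adjusted p under 0.05. In leaf its levels were 11.1, 9.02 and 6.49 TPM at 0 h, 5.86, 5.96 and 5.35 TPM at 3 h and 5.42, 5.69 and 4.90 TPM at 24.5 h. All leaf libraries of 3 h and 24.5 h lay below those of 0 h, as held for 46.7% and 43.7% of all genes, with changes of -0.53 (SE 0.20, limma adjusted p = 0.089) and -0.61 (SE 0.20, adjusted p = 0.063). In primary root EIL4 had 13.2, 10.3 and 17.7 TPM 0.5 h after nitrate return, against 7.38, 7.46 and 10.0 TPM at 24 h. The groups did not overlap, as held for 21.4% of all genes in that comparison, and the change of 0.64 (SE 0.17, limma adjusted p = 0.027) stayed under the fold limit. The change ranged from 0.46 to 0.82 over the removal of single libraries. The 17.7 TPM belonged to 24.5 h replicate 3, the library with 30736 genes at 1 TPM or more. For 24.5 h replicate 1 the nearest library over all genes was a lateral root library, with a correlation of 0.984. The same comparison in lateral root gave 12.4, 23.4 and 18 TPM at 24.5 h, against 8.88, 13.2 and 10.5 TPM at 24 h, with a change of 0.65 (SE 0.33, adjusted p = 0.60) and overlapping groups. Lateral root EIL4 lay at 5.65 TPM in the 0 h library with the leaf marker, against 16.4 and 18.2 TPM in the other 0 h libraries, and no change against 0 h was called with or without it.

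EREB71, an AP2/EREBP factor that the network places upstream of both NRT2.1 nitrate transporter genes, fell in primary root from 3 h without nitrate on, relative to 0 h, and was still low after nitrate return. Its levels were 42.1, 34.2 and 28.4 TPM at 0 h, 25.9, 35.1 and 27.2 TPM at 0.5 h, 10.0, 10.4 and 6.30 TPM at 3 h, and 6.75, 12.0 and 8.38 TPM at 24 h. They were 16.7, 6.91 and 8.37 TPM at 24.5 h, 12.7, 12.7 and 16.8 TPM at 48 h, and 23.6, 22.6 and 25.6 TPM in the 48 h control. Every library from 3 h to 48 h lay below every library of 0 h, of 0.5 h and of the 48 h control, and the 0 h and 0.5 h libraries overlapped.

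The primary root change of EREB71 against 0 h was -0.23 at 0.5 h (limma adjusted p = 0.69). It was -1.87 at 3 h (adjusted p = 0.00026), -1.85 at 24 h (adjusted p = 0.00027), -1.69 at 24.5 h (adjusted p = 0.00045) and -1.25 at 48 h (adjusted p = 0.0088), each with an SE of 0.26. EREB71 was the single member called at each of the times from 3 h on, of 5 tested, where 4.22%, 4.50%, 5.81% and 3.40% of all genes were called at these times in order. These calls were kept without any 1 of the 21 libraries. With the 48 h control in place of the 0 h group as reference, the change was -1.36 at 3 h (adjusted p = 0.004), -1.34 at 24 h (adjusted p = 0.0044), -1.19 at 24.5 h (adjusted p = 0.0057) and -0.74 at 48 h (adjusted p = 0.35), so the call at 48 h was lost. The 48 h control itself differed from 0 h by -0.51 (SE 0.26, adjusted p = 0.38).

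In lateral root EREB71 had 0.221, 20.3 and 29.5 TPM at 0 h, 44.9, 29.5 and 35.3 TPM at 0.5 h, 8.44, 11.6 and 6.58 TPM at 3 h, and 10.4, 9.95 and 6.55 TPM at 24 h. It had 9.08, 7.14 and 7.69 TPM at 24.5 h, 18.4, 21.4 and 17.3 TPM at 48 h, and 24.7, 20.6 and 16.4 TPM in the 48 h control. The 0.221 TPM library was the one with 4280 TPM of LHCB5, and it alone lay below the range of the deprived groups. With all libraries no change against 0 h was called: 2.00 at 0.5 h (SE 0.75, limma adjusted p = 0.096), then 0.06, 0.08, -0.05 and 1.11 at the 4 later times. Without that library the changes were 0.54 at 0.5 h (SE 0.25, adjusted p = 0.15), -1.40 at 3 h (adjusted p = 0.00095), -1.38 at 24 h (adjusted p = 0.00096), -1.51 at 24.5 h (adjusted p = 0.00031) and -0.35 at 48 h (adjusted p = 0.35), so 3 falls were called and 3 of the changes, at 3, 24 and 48 h, turned direction. Without replicate 2 or replicate 3 of 0 h, which leaves the library with the leaf marker in place, the change at 0.5 h was 2.60 (adjusted p = 0.038) or 2.86 (adjusted p = 0.0081), and without replicate 3 the 48 h control was called higher than 0 h for EREB71 (2.06) and EREB126 (1.13).

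**Figure D3:**
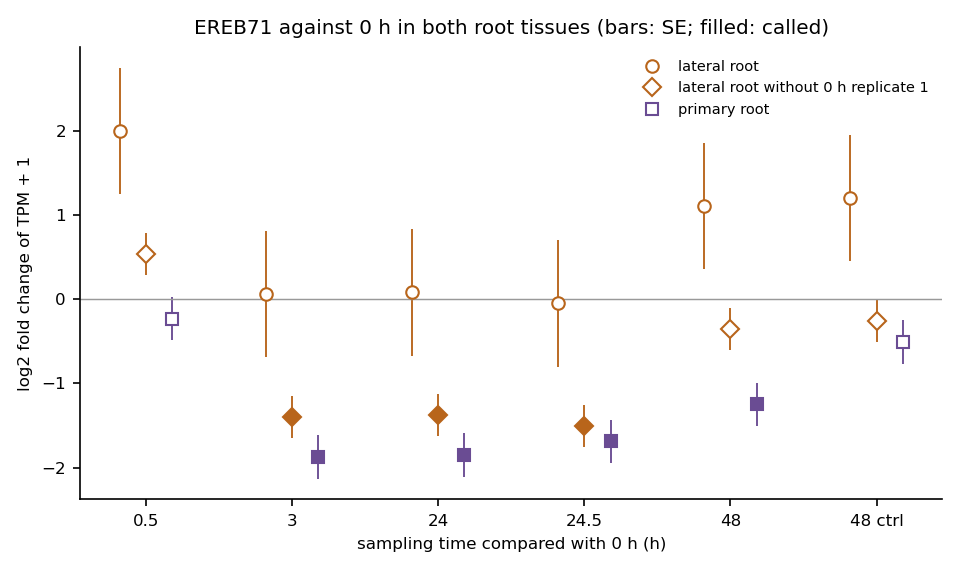
Change of EREB71 against 0 h on the log2(TPM + 1) scale with bars of 1 SE at 5 times (hours), for lateral root with all libraries, lateral root without 0 h replicate 1, and primary root. Lateral root lies at 0.06 at 3 h with all libraries and at -1.40 without that library, beside -1.87 in primary root.

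The comparison of 48 h with 24 h does not use the 0 h group. In lateral root EREB71 had 18.4, 21.4 and 17.3 TPM at 48 h, against 10.4, 9.95 and 6.55 TPM at 24 h, without overlap, as held for 41.3% of all genes. The change was 1.03 with an SE of 0.75 and a limma adjusted p of 0.69 in the fit of all libraries, which shares 1 spread per gene, and 1.03 with an SE of 0.22 and an adjusted p of 0.0035 without that library, when 7.16% of all genes were called. In primary root the values were 12.7, 12.7 and 16.8 TPM at 48 h, against 6.75, 12.0 and 8.38 TPM at 24 h, with a change of 0.61 (SE 0.26, adjusted p = 0.15). The lateral root 48 h libraries overlapped the 48 h control, while the primary root 48 h libraries all lay below it.

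EREB71 was scarce in leaf, at 0.496, 0.252 and 0.173 TPM at 24.5 h and 0.134, 0.207 and 0.260 TPM at 48 h, against 3.41, 0.638 and 0.779 TPM at 0 h. Only 7 of the 21 leaf libraries reached 1 TPM, and 1 of them, the highest, was a 0 h library. All 3 leaf libraries of 24.5 h and of 48 h lay below those of 0 h, with changes of -0.85 (limma adjusted p = 0.15) and -0.97 (adjusted p = 0.11), neither of them called.

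EREB126, which the study's network also lists under a RAV name, rose within 0.5 h of nitrate withdrawal in both root tissues. In lateral root it had 42.1, 32.4 and 32.8 TPM at 0.5 h, against 6.44, 6.39 and 18.9 TPM at 0 h. Every 0.5 h library lay above every lateral root library of the other groups. The change was 1.83 (SE 0.34, limma adjusted p = 0.0026), and EREB126 was the 1 member of 4 called, where 8.65% of all genes were called. Without the library with the leaf marker, which held 6.44 TPM, it was 1.59 (SE 0.35, adjusted p = 0.0044). The call was lost when only the compared groups were fitted (adjusted p = 0.33) and with the 48 h control as reference (1.17, adjusted p = 0.08).

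In primary root EREB126 had 72.7, 74.0 and 47.2 TPM at 0.5 h, against 38.2, 15.7 and 23.3 TPM at 0 h. The groups did not overlap, as for 31.4% of all genes, and the change was 1.36 (SE 0.41, limma adjusted p = 0.042), the 1 call among 5 members where 5.37% of all genes were called. The call rested close to the limit. Without 0 h replicate 2 the change was 1.06 and without 0 h replicate 3 it was 1.33. Without 0.5 h replicate 1 or 2 it was 1.26 or 1.25, and all 4 of these lost the call, as did leaving out 3 h replicate 1, 24 h replicate 1, 48 h replicate 1 or 3 or any 48 h control library, at an unmoved 1.36. At the same 1.36 the call was also lost with no filter on low values (adjusted p = 0.074), with the replicate block (adjusted p = 0.056) and when only the compared groups were fitted (adjusted p = 0.052).

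The root levels of EREB126 then came down. In lateral root it had 12.6, 10.7 and 6.84 TPM at 3 h and 8.25, 5.80 and 7.19 TPM at 24 h, and in primary root 23.3, 17.7 and 39.3 TPM at 3 h and 11.3, 15.3 and 8.42 TPM at 24 h. None of these groups was called different from 0 h, and without the library with the leaf marker the lateral root changes were -0.17 at 3 h and -0.60 at 24 h, not called either. Primary root at 24 h had a change of -1.02 (SE 0.41, limma adjusted p = 0.12) that was called when 24.5 h replicate 2 was left out. At 24.5 h the primary root libraries spread over 21.7, 52.5 and 11.8 TPM, against 11.3, 15.3 and 8.42 TPM at 24 h, with a change of 1.01 (SE 0.41, adjusted p = 0.14). Without 24.5 h replicate 3, the library with 30736 genes at 1 TPM or more where the next primary root library had 21576, that change was 1.5 and was called (adjusted p = 0.033). Lateral root had 9.22, 9.17 and 18.4 TPM at 24.5 h, against 8.25, 5.80 and 7.19 TPM at 24 h, with a change of 0.66 (adjusted p = 0.61).

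In leaf EREB126 was low at the start and higher after nitrate return. Its levels were 1.94, 1.95 and 2.50 TPM at 0 h, 4.16, 5.11 and 3.39 TPM at 3 h, 3.96, 1.29 and 4.31 TPM at 24 h, 4.64, 7.37 and 6.31 TPM at 24.5 h, and 4.38, 9.22 and 10.7 TPM at 48 h. The 48 h control held 4.73, 5.83 and 6.32 TPM. All libraries of 3 h, 24.5 h, 48 h and the 48 h control lay above the 3 libraries of 0 h, and 48 h overlapped its control.

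The leaf changes of EREB126 against 0 h were 0.73 at 3 h (SE 0.33, limma adjusted p = 0.15), 1.17 at 24.5 h (adjusted p = 0.032), 1.47 at 48 h (adjusted p = 0.0078) and 1.08 in the 48 h control (adjusted p = 0.042). Against 24 h the change at 48 h was 1.14 (adjusted p = 0.025), the 1 call of 12 tests in leaf after nitrate return, where 2.80% of all gene tests were called, and against the 48 h control it was 0.39 (adjusted p = 0.63). The call at 24.5 h was lost without any 1 of the 6 libraries compared (1.04 to 1.33) and that of the 48 h control without any 1 of its 6 (1.00 to 1.18) or without 3 h replicate 1 or 2 or 24.5 h replicate 3, at 1.08. The change between 48 h and 24 h was 0.75 without 24 h replicate 2, 1.02 without 48 h replicate 2 and 0.92 without 48 h replicate 3, none of them called, while the call at 48 h against 0 h was kept without any 1 library. Under median-of-ratios scaling and quantile normalization the calls at 24.5 h (1.08 and 1.04) and in the 48 h control (0.94 and 0.90) were lost. With no filter on low values the calls at 24.5 h (adjusted p = 0.063), in the 48 h control (adjusted p = 0.081) and between 48 h and 24 h (adjusted p = 0.052) were lost, as was the last when only the compared groups were fitted (adjusted p = 0.14). The call in the 48 h control was lost with the replicate block too (adjusted p = 0.061), and with the 48 h control as reference the change at 24.5 h was 0.09 (adjusted p = 0.91).

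EREB159, the most abundant member, rose in leaf 3 h after nitrate withdrawal and had come down by 24 h. Its leaf levels were 39.3, 48.6 and 45.9 TPM at 0 h, 49.5, 72.4 and 65.3 TPM at 0.5 h, 143, 148 and 150 TPM at 3 h, and 59.1, 49.7 and 64.6 TPM at 24 h. They were 94.6, 88.2 and 97.5 TPM at 24.5 h and 50.2, 49.6 and 59.8 TPM at 48 h. The 3 h libraries lay above every other leaf library but 1, and those of 24.5 h above all of 0 h, 0.5 h, 24 h and 48 h.

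The leaf change of EREB159 was 1.70 at 3 h (SE 0.28, limma adjusted p = 0.00054), a ratio of 3.30 between means, and 1.06 at 24.5 h (SE 0.28, adjusted p = 0.021). Among the 4 leaf members tested it was the single call at 3 h, where 8.12% of all genes were called, and with EREB126 made 2 calls at 24.5 h, where the share was 4.36%. At 0.5 h, 24 h and 48 h the changes were 0.46, 0.36 and 0.25 with adjusted p of 1.00, 0.45 and 0.65. No gene of the 19882 tested in leaf was called by limma at 0.5 h, where 562 genes and 0 members had an unadjusted p under 0.05, 2.42% of all genes and 0 of 4 members were called at 24 h, and 5.22% of all genes and 1 member, EREB126, at 48 h. The call at 3 h was kept without any 1 library. That at 24.5 h was lost without 0 h replicate 1 (0.97) or 3 (1.08) or without 24.5 h replicate 1, 2 or 3 (1.05, 1.1 and 1.02), under median-of-ratios scaling (0.94) or quantile normalization (0.99), and with the 48 h control as reference (0.16, adjusted p = 0.80).

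The exception above 3 h was in the leaf 48 h control, whose libraries held 170, 57.9 and 59.4 TPM of EREB159. The library with 170 TPM also had the lowest LHCB5 of any leaf library, 1030 TPM, and its nearest library was a leaf library of 3 h. The 48 h control differed from 0 h by 0.90 with it (SE 0.28, limma adjusted p = 0.04) and by 0.39 without it (adjusted p = 0.14). Without control replicate 2 or 3, when it weighed more, the change was 1.16 or 1.14 and was called. In that comparison EREB126 was the 1 member of 4 called, where 5.71% of all genes were called. With the 48 h control as reference, the rise at 3 h was 0.80 (adjusted p = 0.068).

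In roots EREB159 moved within narrow limits. Primary root held 54.1, 56.8 and 56.0 TPM at 0 h, 62.7, 67.2 and 64.6 TPM at 3 h, 55.1, 63.9 and 52.7 TPM at 24 h, 36.4, 34.2 and 42 TPM at 48 h, and 51.5, 55.8 and 45.0 TPM in the 48 h control. The 48 h libraries were the lowest of all primary root libraries. The change at 48 h was -0.56 against 0 h (SE 0.13, limma adjusted p = 0.013), -0.59 against 24 h (SE 0.13, adjusted p = 0.0057) and -0.42 against the 48 h control (adjusted p = 0.20), all under the fold limit. Lateral root held 36.9, 37.4 and 40.5 TPM at 24.5 h, against 66.9, 46.6 and 61.4 TPM at 0 h, with a change of -0.58 (SE 0.16, adjusted p = 0.02), or -0.47 (adjusted p = 0.025) without the library with the leaf marker. At 3 h the lateral root libraries, with 71.8, 79.1 and 68.4 TPM, lay above those of 0 h, with a change of 0.33 (adjusted p = 0.17), or 0.44 (adjusted p = 0.052) without that library.

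After nitrate return no member was called in the roots by limma: 0 of 12 tests in lateral root, where 1.27% of all gene tests were called and 2 of the members' tests had an unadjusted p under 0.05, and 0 of 15 in primary root, where 3.01% were called and 7 had one. Those 7 held the 2 adjusted p under 0.05 of EIL4 at 24.5 h and EREB159 at 48 h given above. In lateral root the call of EREB71 at 48 h against 24 h was made only without the 0 h library with the leaf marker or with the compared groups alone.

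EREB63, an AP2/EREBP factor that the network places upstream of NIR1 and GS1-1, was near absence in leaf and lateral root. Its highest value was 0.378 TPM in leaf and 1.34 TPM in lateral root, and it was listed at 0 in 9 and 5 of the 21 libraries. It passed the filter only in primary root, through 6 libraries at 1 TPM or more. There it had 5.54, 0.103 and 0.512 TPM at 0 h, 1.65, 1.54 and 2.09 TPM at 0.5 h, 0.615, 0.675 and 0 TPM at 3 h, and 0.275, 0.376 and 0.311 TPM at 24 h. It then had 0.447, 4.20 and 2.24 TPM at 24.5 h, 0.111, 0.137 and 0.116 TPM at 48 h, and 0.577, 0.541 and 0.0983 TPM in the 48 h control. The 0.5 h libraries were the 1 group with all values above 1 TPM, and the 0 h libraries spread widely. No change was called in 9 tests by limma, with 1 unadjusted p under 0.05: 24.5 h lay above 24 h without overlap, by 1.14 (SE 0.50, adjusted p = 0.17), and that change was called without 0 h replicate 1 (1.14, adjusted p = 0.048) or 24.5 h replicate 1 (1.64, adjusted p = 0.041).

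Neither copy of EREB89 was tested in any tissue. SORBI_3007G162700 was listed at 0 in 16 leaf, 14 lateral root and 16 primary root libraries of 21 each, and SORBI_3001G378900 in 12, 8 and 5. Outside 1 library both stayed under 1 TPM throughout. That library was primary root 24.5 h replicate 3, with 2.46 TPM of SORBI_3007G162700 and 1.66 TPM of SORBI_3001G378900, the same library that held 30736 genes at 1 TPM or more. In leaf and lateral root the highest values were 0.405 and 0.450 TPM for SORBI_3007G162700 and 0.458 and 0.627 TPM for SORBI_3001G378900.

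**Figure D4:**
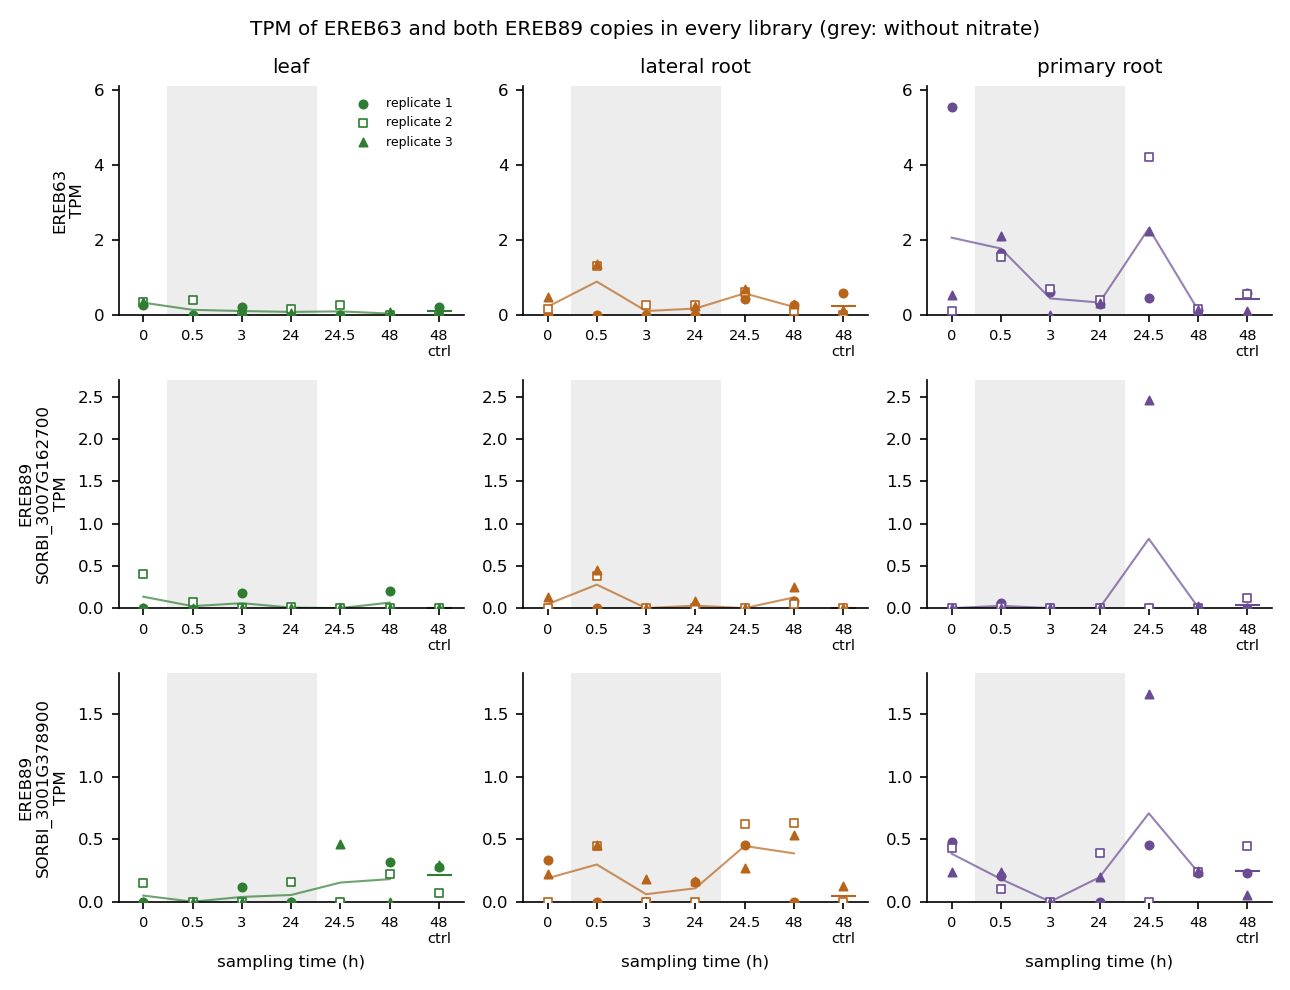
TPM of EREB63 and the 2 EREB89 copies (rows) in each library of leaf, lateral root and primary root (columns) at each sampling time in hours and in the 48 h control; lines join group means and grey marks the time without nitrate. Only EREB63 in primary root passed the filter, and the highest point of each EREB89 copy, 2.46 and 1.66 TPM, is the same primary root library of 24.5 h.

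The changes against 0 h were also compared between tissues, in 1 limma fit of each pair of tissues over the genes measurable in both. Of 20 differences between leaf and primary root 5 passed an adjusted p of 0.05, against 7.49% of all gene tests. For EREB159 the change was 1.70 in leaf and 0.22 in primary root at 3 h, a difference of 1.49 (SE 0.32, adjusted p = 0.0026), and 1.06 in leaf and -0.11 in primary root at 24.5 h, a difference of 1.17 (SE 0.32, adjusted p = 0.014). For EREB71 at 3 h the changes of -0.32 in leaf and -1.87 in primary root differed by 1.54 (SE 0.47, adjusted p = 0.027), with leaf levels that were already low at 0 h. At 3 h 12.9% of all genes passed, at 24.5 h 12.5% and at 48 h 4.25%, and EREB126 at 48 h and EIL4 at 24.5 h were the other members that passed. None of the 20 differences between lateral and primary root passed in limma, against 0.169% of all gene tests, with all libraries, and 5 had an unadjusted p under 0.05. For EREB71 at 3 h that difference was 1.92 with all libraries (SE 0.82, adjusted p = 0.15) and 0.46 without replicate 1 of lateral root 0 h, the library with the leaf marker. It passed without replicate 2 (2.53) or replicate 3 (2.79) of that group, which leaves the library with the leaf marker in place.

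The 3 ACC synthase genes of the network, ACS1, ACS6 and ACS7, make the precursor of ethylene, and ACS7 is a projected target of EIL4. In primary root ACS7 fell to 8.94, 10.3 and 9.26 TPM at 0.5 h, against 54.6, 22.4 and 37.7 TPM at 0 h, a change of -1.82 (SE 0.31, limma adjusted p = 0.0011). At 48 h it had 14.7, 17.5 and 14.2 TPM, against 30.8, 83.7 and 39.3 TPM in the 48 h control, without overlap and with a change of -1.54 (SE 0.31, adjusted p = 0.029). ACS6 went the other way, with 7.61, 6.77 and 4.50 TPM at 0.5 h, against 1.74, 2.52 and 2.50 TPM at 0 h, a rise of 1.15 (SE 0.30, adjusted p = 0.018). Later ACS6 averaged 2.80 TPM at 3 h, 4.87 TPM at 24 h and 5.06 TPM at 24.5 h, and was not called against 0 h at these times. ACS1 was not called in primary root at any time.

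In lateral root ACS6 rose by 1.56 at 0.5 h (SE 0.32, limma adjusted p = 0.005), with 4.81, 5.15 and 4.59 TPM at 0.5 h, against 0.106, 1.75 and 1.56 TPM at 0 h. It had 2.76, 2.54 and 1.68 TPM at 3 h, 5.57, 4.97 and 3.19 TPM at 24 h, and 4.11, 4.2 and 4.81 TPM at 24.5 h. Without the 0 h library with the leaf marker, which held the 0.106 TPM, the rise of ACS6 at 0.5 h was 1.14 (adjusted p = 0.007). ACS7 had 10.4, 10.2 and 11.9 TPM at 0.5 h, against 0.336, 26.7 and 56.9 TPM at 0 h, and was called lower only without that library, at -1.76 (adjusted p = 0.00034). ACS1 had 75.1, 83.3 and 37.4 TPM at 48 h, against 0, 12.1 and 24.1 TPM at 0 h, a rise of 3.18 (SE 0.77, adjusted p = 0.019), or 1.79 (adjusted p = 0.0058) without that library. At 3 h ACS1 had 4.56, 6.98 and 2.90 TPM and was called lower than 0 h only without that library, by -1.70 (adjusted p = 0.0067). In leaf only ACS1 was measurable, with 6.37, 2.26 and 1.07 TPM at 3 h, against 0.0964, 0.131 and 0.0833 TPM at 0 h, a rise of 1.74 (SE 0.37, adjusted p = 0.0045).

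**Figure D5:**
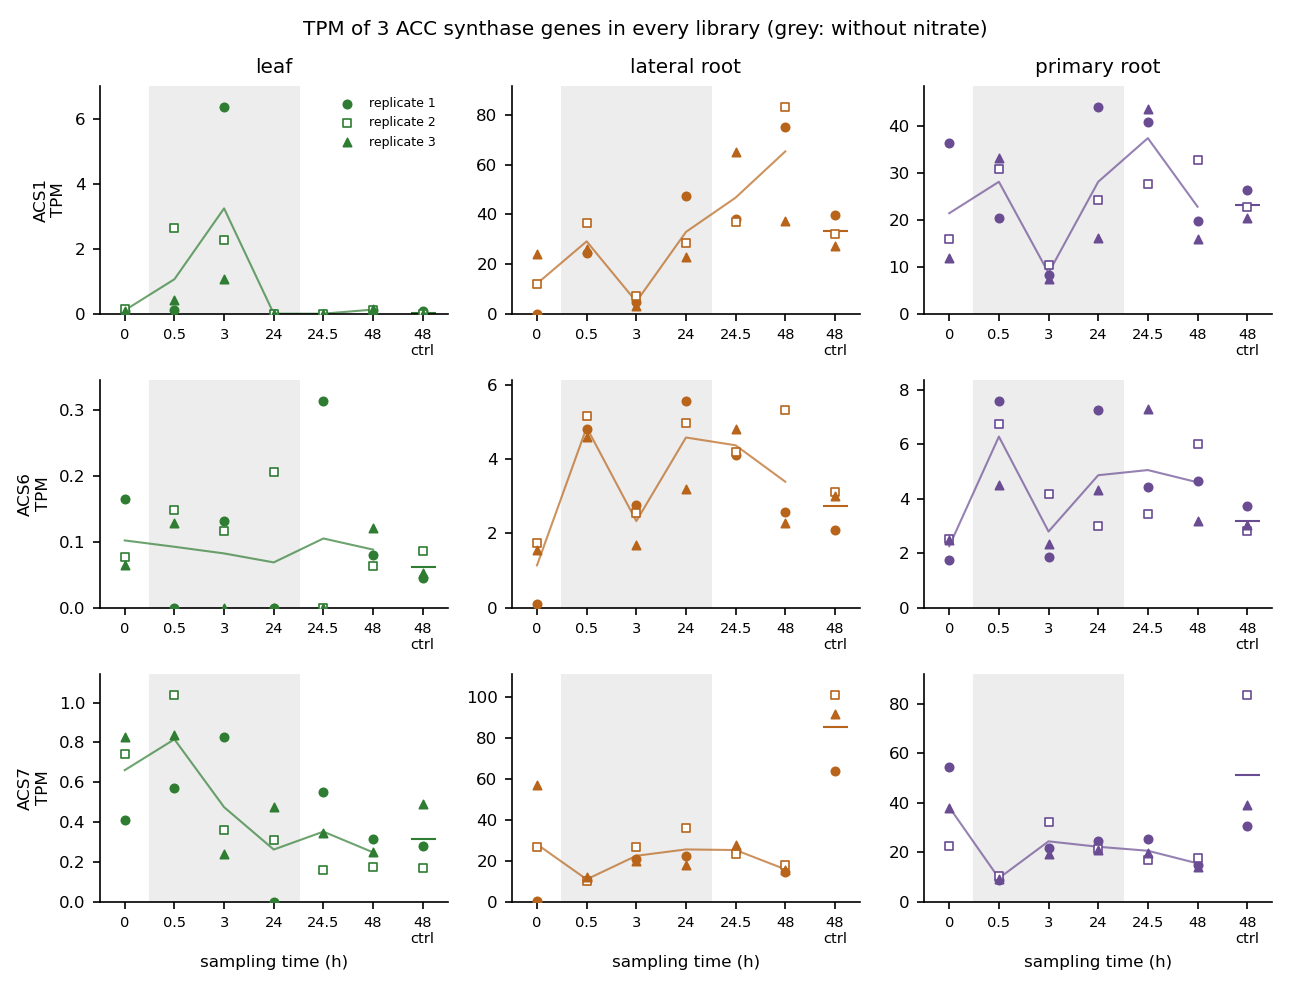
TPM of the ACC synthase genes ACS1, ACS6 and ACS7 (rows) in each library of leaf, lateral root and primary root (columns) by sampling time in hours and in the 48 h control; lines join group means, grey marks the time without nitrate, and the vertical scale differs by panel. ACS7 was low and ACS6 high at 0.5 h in both roots, with 1 lateral root 0 h library near 0 for all 3 genes. By group mean ACS6 was higher at 24 h and 24.5 h than at 3 h in both roots.

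The counts of the gene lists below stand against the share of all genes called in each direction. At the 5 successive times 0%, 5.54%, 1.28%, 3.02% and 3.15% of all genes were called higher in leaf and 0%, 2.58%, 1.14%, 1.34% and 2.06% lower. In primary root these shares were 2.23%, 1.81%, 2.38%, 3.78% and 1.08% higher and 3.14%, 2.42%, 2.12%, 2.04% and 2.32% lower. In lateral root they were 7.47%, 4.91%, 8.05%, 10.8% and 6.80% higher and 1.18%, 1.96%, 1.38%, 2.38% and 0.428% lower. Without the library with the leaf marker the lateral root shares were 6.13%, 3.78%, 5.5%, 7.14% and 6.20% higher and 2.70%, 3.76%, 2.71%, 3.72% and 1.55% lower.

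The network held 35 further AP2/EREBP factors, of which 24 were measurable in leaf and 33 in each root. At 0.5 h 7 of 33 were called higher and 0 lower in each root tissue, against 7.47% of all genes called higher in lateral and 2.23% in primary root, with a median change of 0.81 in lateral root, beside 0.20 over all genes, and 0.04 in primary root, beside -0.08. Without the library with the leaf marker the lateral root count was 9 higher and 0 lower, with a median of 0.24 beside -0.04. EREB127 rose in lateral root to 204 ± 65.2 TPM at 0.5 h, against 6.28 ± 6.52 TPM at 0 h (SD, n = 3 each), by 5.40 (limma adjusted p = 9.9e-05; 4.34 without that library). In primary root EREB127 rose to 149 ± 82.4 TPM, against 31.5 ± 43.8 TPM, by 3.09 (adjusted p = 0.02). EREB76 rose in lateral root by 2.48 at 0.5 h (adjusted p = 0.0023; 1.69 without that library). EREB115 rose in primary root to 105 ± 36.6 TPM, against 33.5 ± 36.4 TPM, by 2.15 (adjusted p = 0.029).

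At later times most calls of these factors against 0 h in primary root were falls: 1, 3, 0 and 5 of 33 fell and 0, 0, 1 and 0 rose at 3, 24, 24.5 and 48 h. EREB97 fell to 21.3 ± 6.07 TPM at 48 h in primary root, against 152 ± 62.4 TPM at 0 h (SD, n = 3 each; -2.70, limma adjusted p = 0.0022). EREB127 fell there too, to 0.495 ± 0.248 TPM, against a widely spread 31.5 ± 43.8 TPM at 0 h (-3.36, adjusted p = 0.019). In lateral root 2, 2, 8 and 3 of 33 rose and 1, 2, 0 and 0 fell at these times, or 0, 1, 8 and 5 and 3, 4, 1 and 3 without the library with the leaf marker. EREB115 fell in lateral root at 3 h (-2.1, adjusted p = 0.0078) and EREB204 at 24 h (-1.11, adjusted p = 0.0013), with changes of -1.6 and -1.23, both called, without that library. In leaf 0, 1, 1, 3 and 6 of 24 rose at the 5 successive times and 1 fell, EREB19 at 3 h (-1.13, adjusted p = 0.0015), and EREB122 and EREB115 rose by 2.14 (adjusted p = 0.00032) and 2.08 (adjusted p = 0.0047) at 48 h. Between 24 h and 24.5 h, after nitrate return, 5 of 33 rose and 0 fell in primary root, where 2.85% of all genes were called higher. In lateral root 6 of 33 rose and 0 fell, against 1.24%, or 8 and 0 without the library with the leaf marker. The share of all genes called there in either direction was 1.41% with all libraries and 3.68% without that library. In leaf 1 of 24 rose and 0 fell, against 0.126%.

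The members had 42 projected edges to 30 genes, of which 28 were not members. EIL4 had 12 targets, EREB63 12, EREB71 13, EREB126 3 and EREB159 2, with several targets shared, and the EREB89 copies were targets only. In primary root 26 of the 28 were measurable, and of these 4, 3, 3, 6 and 1 rose and 6, 5, 2, 1 and 8 fell against 0 h at the 5 successive times. The median change of these 26 lay between -0.38 and 0.05, beside -0.09 to 0.00 over all genes. Over all 9 comparisons 18 of the 26 were called at least once, against 16.9% of all genes. The study had picked the promoters of its network for nitrogen-related processes and for transcription factors. The share among the other genes of the network was not counted here.

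The targets shared by EREB63 and EREB71 include both NRT2.1 genes, which encode high-affinity nitrate transporters. In primary root SORBI_3004G009400 averaged 124 TPM at 24 h and 243 TPM at 24.5 h, against 4.76 TPM at 0 h, changes of 4.44 (limma adjusted p = 1e-07) and 5.38 (adjusted p = 6.8e-09), and SORBI_3004G009500 averaged 253 and 374 TPM, against 19.5 TPM. Both fell by 48 h, with changes of -6.61 and -6.96 against 24 h (adjusted p = 4.4e-10 and 8e-10), and the 48 h control was also low, at 0.29 and 2.02 TPM (-2.14 and -2.84 against 0 h, adjusted p = 0.00068 and 0.00023). EREB71 averaged 9.04 TPM at 24 h and 10.7 TPM at 24.5 h, against 34.9 TPM at 0 h, so at those times it was low while both NRT2.1 genes were high, and at 48 h EREB71 averaged 14.1 TPM while they were at 0.268 and 1.04 TPM. The NRT2.1 IDs share a name and are neighbours in number, and how reads common to both were counted is not given in the sources used here. GDH2, a glutamate dehydrogenase gene and a target of the same pair, rose in primary root at 0.5 h (2.42, adjusted p = 0.0017) and 3 h (2.09, adjusted p = 0.0063), while NAC49 rose at 24.5 h against 24 h (1.83, adjusted p = 0.049), and AspAT, an aspartate aminotransferase gene that is also a target of EREB159, fell at 48 h (-1.20, adjusted p = 0.0024; -0.71 against the 48 h control, adjusted p = 0.18). NAC126, of EREB71 alone, rose at 48 h against 24 h (1.3, adjusted p = 0.0047).

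Of the other targets of EREB63, NIR1, the nitrite reductase gene, averaged 265 TPM at 0.5 h and 99.9 TPM at 3 h in primary root, against 545 TPM at 0 h (-1.05 and -2.43, limma adjusted p = 0.00071 and 4.9e-07). At 24.5 h NIR1 averaged 1320 TPM, against 328 TPM at 24 h (1.99, adjusted p = 4.2e-06). GS1-1, a cytosolic glutamine synthetase gene, fell at 3 h (-2.12, adjusted p = 0.00031) and stayed low to 48 h (-2.04, adjusted p = 0.00083), and the 48 h control was low too (-1.73, adjusted p = 0.0061). PGM fell at 3 h (-1.05, adjusted p = 0.004) and rose at 24.5 h (1.45, adjusted p = 0.00023).

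Among the targets of EIL4, whose own level was not called at any time, the ammonium transporter gene AMT1.3 averaged 119 TPM at 0.5 h and 37.2 TPM at 48 h in primary root, against 240 TPM at 0 h (-1.07 and -2.66, limma adjusted p = 0.036 and 0.00014). AMT1.1a fell at 0.5 h (-1.15, adjusted p = 0.036) and 48 h (-1.61, adjusted p = 0.0085). NAR2.1, the partner protein that NRT2 transporters need, rose at 24 h (1.92, adjusted p = 7.6e-06) and fell at 48 h (-1.22, adjusted p = 0.00064). The 48 h control was also low against 0 h for AMT1.3 (-1.82, adjusted p = 0.0048) and NAR2.1 (-1.15, adjusted p = 0.0022), and for AMT1.1a it differed by -1.29 (adjusted p = 0.051). Against that control, none of the 3 was called at 48 h (-0.84, -0.06 and -0.33). NAC44 rose at 0.5 h (1.42, adjusted p = 0.013), and ARGOS8, of a family that lowers ethylene responses in maize, averaged 11.6 TPM at 48 h, against 0.852 TPM at 0 h (2.55, adjusted p = 0.015; 2.14 against the 48 h control, adjusted p = 0.15).

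EREB126 rose in primary root at 0.5 h, and of its 3 projected targets NLP17, a NIN-like factor gene, fell and bZIP18 rose at that time. NLP17 averaged 5.19 TPM at 0.5 h, against 19.7 TPM at 0 h (-1.75, limma adjusted p = 1.7e-05), and bZIP18 averaged 35.9 TPM, against 9.75 TPM (1.79, adjusted p = 0.00064). In lateral root, where EREB126 also rose at 0.5 h, 1 of the 3 targets was called higher and 0 lower with all libraries. The remaining target, ARF22, was not called in primary root. Of the 2 targets of EREB159, NRT1.3 rose at 0.5 h (1.59, adjusted p = 0.027), when EREB159 itself changed by -0.13 in primary root.

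In leaf 23 of the 28 targets were measurable, and 0, 2, 3, 4 and 3 rose and 0, 4, 1, 0 and 2 fell at the 5 successive times. AspAT, a target of EREB159, averaged 387 ± 41.2 TPM at 24.5 h in leaf, against 82.7 ± 5.89 TPM at 0 h (SD, n = 3 each; 2.21, limma adjusted p = 0.00011). NLP17 rose at 24 h (1.79, adjusted p = 0.0093), NIR1 fell at 3 h (-2.58, adjusted p = 9e-05) and NAC49 fell at 48 h (-2.17, adjusted p = 0.00032). In lateral root 25 were measurable, and 4, 3, 4, 8 and 2 rose and 2, 3, 0, 2 and 0 fell, or 4, 4, 4, 8 and 2 and 3, 5, 3, 2 and 3 without the library with the leaf marker. The largest lateral root rises were those of the NRT2.1 genes at 24.5 h (7.43 and 6.42, or 6.54 and 4.84 without that library), and HAD2 (-5.27 at 24.5 h) and AMT1.1a (-2.45 at 3 h) fell most, with changes of -3.87 and -1.73 without that library.

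Both EREB89 copies shared 26 projected regulators, EIL4 and 25 others. In primary root, where all 25 were measurable, 1, 1, 0, 0 and 0 rose and 1, 0, 0, 1 and 1 fell at the 5 successive times, and the EREB89 copies stayed under 1 TPM apart from the library named above. The primary root calls included rises of bZIP18 at 0.5 h (1.79) and bZIP111 at 3 h (1.21) and falls of bZIP21 at 0.5 h (-1.33) and EREB147 at 48 h (-1.61). In leaf GRF12 rose at 24.5 h (1.55), bZIP111 rose at 48 h (1.5) and TCP4 fell at 3 h (-1.77). In lateral root GATA13 rose at 48 h (1.96), NAC126 rose at 0.5 h (1.93), bZIP111 fell at 24.5 h (-2.50) and bZIP102 fell at 0.5 h (-1.05). Without the library with the leaf marker the changes of GATA13 (1.16), bZIP111 (-1.49) and bZIP102 (-1.22) were called and that of NAC126 (0.77) was not.

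The genes nearest to each changing member in profile were listed as a description, by the root mean square distance of log2(TPM + 1) group means over the 7 groups, each centred on its own mean. For EREB71 in primary root they were SORBI_3002G184600 and SORBI_3010G021800, at distances of 0.251 and 0.271 where EREB71 itself spanned 1.87. For EREB159 in leaf they were SORBI_3003G359500 and SORBI_3006G238600, at 0.101 and 0.118 against a span of 1.70. For EREB126 they were SORBI_3001G452700 and SORBI_3003G422700 in leaf, at 0.0885 and 0.105, SORBI_3004G153501 and SORBI_3008G189400 in lateral root, at 0.163 and 0.166, and SORBI_3001G155300 and SORBI_3006G089300 in primary root, at 0.181 and 0.186. The sources used here pair none of these IDs with a name.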

How the data were processed

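Poly(A) RNA was sequenced from 63 pools of BTx623 sorghum. The authors trimmed reads with Trimmomatic, aligned them to the BTx623 genome with STAR and assembled them with StringTie, and deposited a TPM value per gene and library; replicates were not pooled. TPM is relative to each library's total, so a few abundant genes can shift the rest.

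Per tissue, limma 3.58.1 in R 4.3.3 was fitted to log2(TPM + 1) of all 21 libraries (7 groups), with trended eBayes and Benjamini-Hochberg adjustment over genes at 1 TPM or more in at least 3 libraries: 19882 leaf, 23151 lateral root and 23186 primary root genes. Differences between tissues were interaction terms. The study's methods test counts at the same thresholds, but only TPM were used here. Scripts were tested on simulated data. Lists were the network's AP2/EREBP factors, ACC synthase genes, projected targets and projected regulators. Named from them were the 2 largest called rises and falls per list and tissue over the 5 times against 0 h, and all targets called in primary root. Further ACC synthase comparisons were named after their values were seen. The members and lists were chosen with earlier results of these data known. Alternatives were the pseudocount, filters, scaling, the threshold, the reference, the replicate block, the groups fitted and leaving out each library. Of the gene IDs, 0 matched the reference table, so no sequence or product name is given.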

Additional observations from a re-analysis of the deposited data

Results flagged for a closer look

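A difference between the leaf and primary root changes against 0 h passed an adjusted p of 0.05 (limma interaction, 3 libraries per group) for 5 of 20 member tests. For EREB159 the leaf minus primary root difference was 1.49 at 3 h and 1.17 at 24.5 h. Both passed under every alternative run for them and without any 1 library, with ranges of 1.40 to 1.55 and 1.07 to 1.29 over the removals of a library. The 48 h control was not tried as the reference for any difference between tissues. With that reference the leaf changes of EREB159 were 0.80 at 3 h (limma adjusted p = 0.068) and 0.16 at 24.5 h (adjusted p = 0.80), neither called.

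For EREB71 the difference was 1.54 at 3 h, where leaf libraries held 0.178 to 1.75 TPM. It missed the threshold with a pseudocount of 0.1 (1.32), under median-of-ratios scaling (1.37) and quantile normalization (1.55), and without leaf 0 h replicate 2 (1.29) or 3 (1.34), leaf 3 h replicate 1 (1.27) or 2 (1.49), primary root 0 h replicate 1 (1.4) or 2 (1.55), or primary root 3 h replicate 3 (1.34). For EREB126 it was 2.1 at 48 h (SE 0.55, adjusted p = 0.024), from changes of 1.47 in leaf and -0.63 in primary root. It missed the threshold under quantile normalization (1.92) and without leaf 0 h replicate 1 (2.05) or 2 (2.06), leaf 48 h replicate 2 (1.97) or 3 (1.87), primary root 0 h replicate 1 (1.78) or primary root 48 h replicate 1 (2.01). For EIL4 it was -0.82 at 24.5 h (SE 0.26, adjusted p = 0.034), from -0.61 in leaf and 0.21 in primary root, with neither change called alone. It missed the threshold without leaf 0 h replicate 1 (-0.66) or 2 (-0.80), leaf 24.5 h replicate 1 (-0.83) or 3 (-0.77), primary root 0 h replicate 2 (-0.72) or 3 (-0.82), or primary root 24.5 h replicate 3 (-0.63).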

How the results depend on the processing

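Removing the library labelled lateral root 0 h replicate 1 turned the lateral root changes of EREB71 to -1.40 at 3 h and -1.38 at 24 h, and over the removal of every library they ranged up to 0.92 and 0.94. The number of member calls against 0 h in leaf, 4, was 2 with a mean TPM of at least 5, with median-of-ratios scaling and with quantile normalization, 0 with the 48 h control as reference, and 2 to 4 without single libraries. EREB126 did not pass the filter of a mean TPM of at least 5 in leaf. Its leaf calls, including that after nitrate return, were then not tested. The lateral root count of 1 was 0 with only the groups compared and with the 48 h control as reference, 2 by adjusted p alone, and 1 to 4 without single libraries. The primary root count of 5 was 4 to 6 throughout. After nitrate return the leaf count of 1 was 0 with no filter, with a mean TPM of at least 5 and with only the groups compared (0 to 1 without single libraries), the lateral root count of 0 was 1 with only the groups compared (0 to 1), and the primary root count of 0 was 2 by adjusted p alone (0 to 1). Counts of list calls moved most in lateral root: the other AP2/EREBP factors had 25 calls against 0 h, with 19 to 50 without single libraries and 0 to 32 under other alternatives, the projected targets 28 (21 to 49, 0 to 34), the regulators 14 (9 to 47, 0 to 16) and the ACC synthase genes 6 (4 to 10, 0 to 6). The same counts in primary root were 17 (10 to 18, 8 to 29), 39 (30 to 40, 31 to 51), 5 (4 to 8, 3 to 16) and 3 (2 to 4, 2 to 5), and in leaf 12 (9 to 13, 10 to 18), 19 (11 to 20, 11 to 24), 3 (3 to 4, 1 to 10) and 1 (1 to 1, 0 to 1). The causes were not tested.

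Replicate numbers gave no sign of pairing on average within a tissue: same-numbered deviations correlated at a mean of -0.03 for leaf, -0.0182 for lateral roots and -0.00892 for primary roots. Single pairs ranged from -0.399 to 0.326 in leaf, -0.325 to 0.308 in lateral root and -0.421 to 0.383 in primary root. Pairing between tissues was not tested. With the replicate block, 2 member calls were lost, EREB126 in leaf in the 48 h control (1.08, adjusted p = 0.061) and in primary root at 0.5 h (1.36, adjusted p = 0.056), and no other member call changed. Levels near 1 TPM, as for EREB63 and EREB71 in leaf, limit what these libraries can show.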
